A study of Rattus norvegicus and Bos taurus with 12 samples.

Results

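The genes that encode the proteins of the mitochondrial ribosome were examined in cultured or freshly isolated heart cells of 2 species. Members were the rows whose symbol, in any case, begins with Mrpl or Mrps followed by a digit. Of the 7052 genes listed for adult rat ventricular myocytes (ARVM) 55 were members, and of the 2115 genes listed for bovine cardiac fibroblasts (Cfib) 0 were.

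RNA sequencing covered 12 libraries in 4 groups of 3. The first comparison set Cfib from the right ventricle of neonatal calves with pulmonary hypertension (PH), which the paper describes as raised under reduced atmospheric pressure, against Cfib from control calves (CO) kept at ambient Denver altitude. Cfib were low-passage cultures, and the groups carry the labels high altitude and control. The second comparison set ARVM of healthy adult Sprague Dawley rats, kept for 7 days in the medium that high-altitude bovine fibroblasts had conditioned (PH-CM), against freshly isolated ARVM. The treatment field of the labels speaks instead of serum of cows from low or high altitude, while the series' own design calls the control ARVM untreated. No ARVM cultured without PH-CM were analysed here, so the effects of 7 days in culture and of PH-CM cannot be told apart. ARVM came from collagenase-digested ventricles by filtration and washing, without a sort, and nothing in the labels ties a library to 1 rat.

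The mitochondrial ribosome is built in the matrix from ribosomal RNAs of the mitochondrial genome and proteins that are all encoded in the nucleus, made on cytosolic ribosomes and imported. Its small subunit holds and decodes the messenger RNA, and its large subunit joins the amino acids and passes the new chain to the inner membrane. It translates only the few messages of the mitochondrial genome, which encode core subunits of the respiratory chain and ATP synthase, and the heart muscle cell is among the cells richest in mitochondria. Some of its proteins have counterparts in the bacterial ribosome and others are found in mitochondria only.

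Every listed member was lower in PH-CM ARVM than in freshly isolated ARVM on the authors' scale, in which reads were divided by 1 size factor per library. Of the 55 members 55 were called lower and 0 higher at an adjusted p of 0.05 (limma, n = 3 against 3). Of all listed genes 43.7% were called lower and 53.9% higher in this comparison. The median log2 fold change was −0.80 over the members, with quartiles of −0.91 and −0.58, against 0.37 over all listed genes. With edgeR 43.7% and 53.0% of all listed genes were called lower and higher, with DESeq2 43.0% and 51.6%, and both called the same count of 55 members lower. An unequal-variance test called 38.9% lower and 44.0% higher, and 52 members lower. No member overlapped between the groups, and neither did any of the 3165 listed genes with a lower mean (44.9% of all). The lack of overlap therefore does not set the members apart. Over the members a median of 57.7% of the fresh level was left, between 30.8% for Mrps36 and 85.9% for Mrpl17. The deposited tables hold only genes the authors had selected for a difference, so a listed member had to differ and only its direction and size were free. In RefSeq 81 rat protein-coding genes carry symbols of the family, of which 54 were listed under that symbol and 2 under an older name, while 25 were not listed and nothing can be said of them.

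The size of the fall depends on the scale. When each library was divided instead by its total over the listed genes, all log2 fold changes moved up by a median of 0.42, the members' median became −0.37 and that of all listed genes 0.80. On that scale 34 members were called lower, 1 (Mrpl17) was called higher and 20 were not called, while 22.5% of all listed genes were called lower and 56.9% higher. This setting was added after the values were seen, and its total covers only genes selected for a difference. Fold changes below are on the authors' scale unless the other is named.

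**Figure D1:**
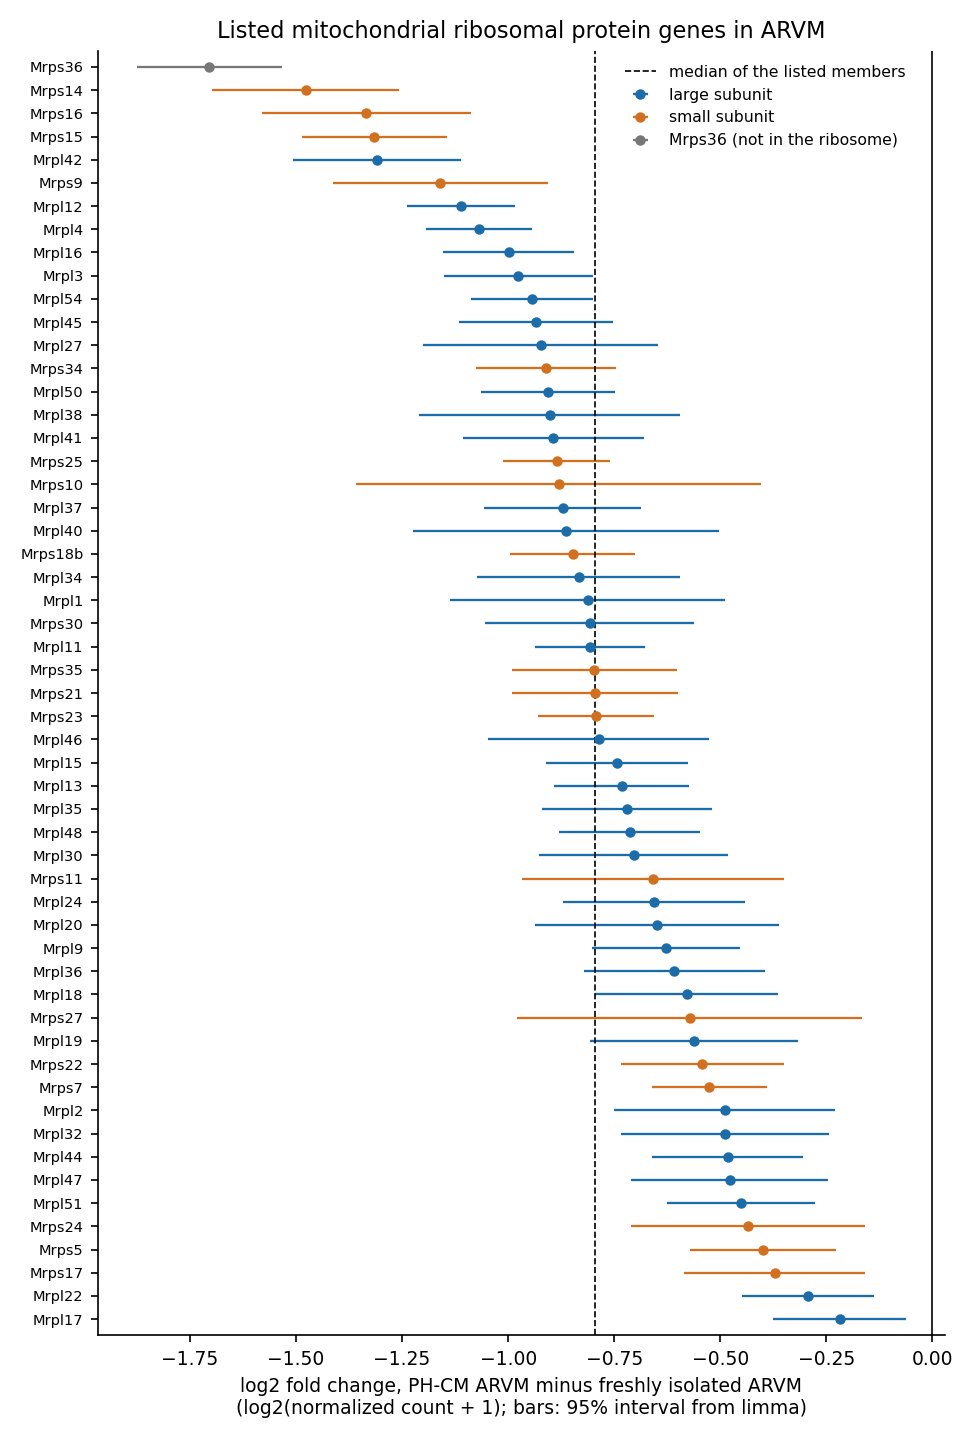
Log2 fold change of each of the 55 listed members (PH-CM minus freshly isolated ARVM, log2 of value + 1) with its 95% confidence interval, ordered by size and coloured by subunit. All points lie below 0, from −1.70 for Mrps36 to −0.22 for Mrpl17, and dividing by the total of the listed values instead moves 4 of them (Mrpl17, Mrpl22, Mrps17 and Mrps5) above 0.

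The libraries of each group lay close together. The values of the 55 members added up to 132125, 129998 and 125293 in fresh libraries 4, 5 and 6 and to 75590, 72097 and 71473 in the 3 PH-CM libraries. As a share of all listed reads the members took 0.689%, 0.685% and 0.677% in fresh libraries and 0.531%, 0.524% and 0.501% in PH-CM libraries. Both sums and shares kept the groups apart, the shares by the smaller margin. Single members had 125 to 6115 reads in a library, and the median coefficient of variation between libraries was 6.06% in fresh and 8.01% in PH-CM ARVM, against 2.5% that counting error alone would give. The listed genes held 12122463 to 18842171 reads per ARVM library.

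The small subunit showed the steepest falls. Mrps14, a protein of the head of the small subunit, was at 2702, 2569 and 2281 in fresh libraries and at 997, 820 and 895 in PH-CM libraries. Every fresh library was far above every PH-CM library, and the log2 fold change was −1.48 (SE 0.10, limma adjusted p = 4.42e-06). Mrps16, a protein of its body, went from 4938, 4994 and 4242 to 2066, 1613 and 1955, or by −1.33 (SE 0.11, limma adjusted p = 1.36e-05). The spread was wider here, but the lowest fresh library was still above the highest PH-CM library. Mrps15, another protein of the body, was at 2746, 2402 and 2338 in fresh libraries and at 992, 1011 and 994 in PH-CM libraries, which differed by little among themselves. Its log2 fold change was −1.32 (SE 0.07, limma adjusted p = 2.24e-06). Mrps9, of the head, went from 3759, 3419 and 3698 to 1594, 1906 and 1401, by −1.16 (SE 0.11, limma adjusted p = 3.34e-05).

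Other small-subunit proteins fell by much less. Mrps17, whose bacterial counterpart binds ribosomal RNA early in assembly, was at 1090, 1024 and 1074 in fresh libraries and at 796, 926 and 752 in PH-CM libraries. The groups did not overlap, by a narrow margin, and the log2 fold change was −0.37 (SE 0.09, limma adjusted p = 0.00542). Mrps5 and Mrps24, the counterparts of bacterial proteins at the entry of the messenger RNA, had log2 fold changes of −0.40 and −0.43. Dividing by the total of the listed values instead gave 0.05 for Mrps17, 0.02 for Mrps5 and −0.01 for Mrps24, none of them called. Among small-subunit proteins found in mitochondria only, the change ran from −0.91 for Mrps34 to −0.54 for Mrps22, a gene mutated in human combined deficiencies of the respiratory chain. Mrps22 was not called relative to the total of the listed values (−0.12, limma adjusted p = 0.252).

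In the large subunit Mrpl42, a protein of mitochondria only, had the steepest fall. It was at 2994, 2795 and 2456 in fresh libraries and at 1079, 1064 and 1176 in PH-CM libraries, a log2 fold change of −1.31 (SE 0.09, limma adjusted p = 4.85e-06). Mrpl12 forms the stalk that calls translation factors to the ribosome. It was at 4493, 4542 and 4437 in fresh and at 2186, 1999 and 2051 in PH-CM libraries, a change of −1.11 (SE 0.06, limma adjusted p = 1.11e-06). Its libraries varied little within each group. Mrpl4, which reaches into the tunnel through which the new chain leaves, went from 2432, 2406 and 2400 to 1119, 1165 and 1167, a change of −1.07 (SE 0.05, limma adjusted p = 1.23e-06).

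The smallest changes were in the large subunit too. Mrpl17, a protein near the exit of the tunnel, was at 4566, 5160 and 4731 in fresh libraries and at 4326, 3897 and 4191 in PH-CM libraries. The groups were apart by 1.055 times only, and the log2 fold change was −0.22 (95% interval −0.38 to −0.06, limma adjusted p = 0.0142). Without fresh library 5 it was −0.17 and no longer called (adjusted p = 0.0575), and relative to the total of the listed values it was 0.20 (adjusted p = 0.0186), a call in the other direction. Mrpl22, which lines the tunnel together with Mrpl4, was at 1329, 1326 and 1280 in fresh libraries and at 1118, 1091 and 1006 in PH-CM libraries. Its change was −0.29 (SE 0.07, limma adjusted p = 0.00375), and 0.13 relative to the total of the listed values, which was not called (adjusted p = 0.121). Mrpl51, of mitochondria only, had a change of −0.45 (SE 0.08, limma adjusted p = 7.43e-04), and −0.03 relative to the total (adjusted p = 0.748). Proteins that line 1 tunnel thus stood near both ends of the order, Mrpl4 at −1.07 and Mrpl22 at −0.29.

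**Figure D2:**
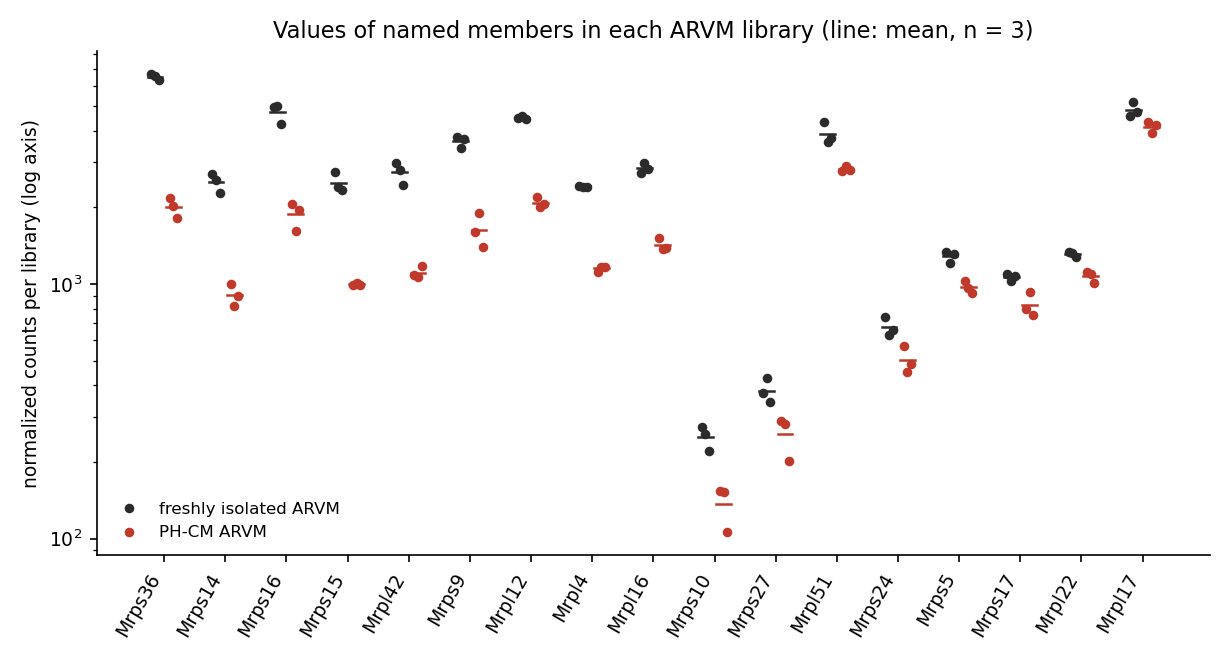
Normalised read count of selected members in each of the 6 ARVM libraries, on a log axis, with points for 3 freshly isolated and 3 PH-CM libraries per gene and lines at the means. The PH-CM points lie below the fresh points for each gene, widely for Mrps36 and narrowly for Mrpl17, and the direction turns for Mrpl17, Mrpl22, Mrps17 and Mrps5 when libraries are divided by the total of the listed values.

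Mrps36 had the steepest fall of all rows with a member's symbol. It was at 6686, 6550.0 and 6316 in fresh libraries and at 2175, 2028 and 1811 in PH-CM libraries, a log2 fold change of −1.70 (95% interval −1.88 to −1.53, limma adjusted p = 6.19e-07). RefSeq names this gene Kgd4, a subunit of the 2-oxoglutarate dehydrogenase complex of the citric acid cycle, and it is left out of the subunit classes below. It and Mrpl17 had the highest means of the 55 rows, and these values are not scaled by gene length, so genes are compared by their changes only. The members with the fewest reads were Mrps10, at 275, 258 and 220 in fresh and 154, 152 and 106 in PH-CM libraries, and Mrps27, at 372, 426 and 344 in fresh and 290, 282 and 202 in PH-CM libraries. Their changes of −0.88 (SE 0.21, limma adjusted p = 0.00406) and −0.57 (SE 0.18, limma adjusted p = 0.0138) carried large errors, and relative to the total of the listed values neither was called (−0.46, adjusted p = 0.0700, and −0.15, adjusted p = 0.461).

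The members did not fall evenly. Of the 55 confidence intervals (95%) 11 lay wholly below the members' median, 12 wholly above it and 32 held it. The log2 fold change was −1 or lower in 8 of the 55 members, no larger a share than the 16.0% of all listed genes called lower at that size. The fall was under 0.5 in 10 members, and the share of all listed genes with so small a fall was not computed. Among these 10 was Mrpl44, mutated in a human mitochondrial cardiomyopathy (−0.48, and −0.06 relative to the total, not called). Between those ends stood most of the large subunit, among them Mrpl3, which reaches toward the site of peptide bond formation (−0.98), Mrpl45, by which the ribosome docks on the inner membrane (−0.93), Mrpl11 of the stalk base (−0.81), and Mrpl1 of the stalk by which spent transfer RNAs leave (−0.81).

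The medians of the 2 subunits lay close together. The 36 large-subunit members had a median log2 fold change of −0.77 and the 18 small-subunit members one of −0.80. Mrps30 was counted with the large subunit, where its protein sits. Members with a bacterial counterpart had a median of −0.71 (34 genes) and those of mitochondria only one of −0.86 (20 genes). The former held both ends of the range, from −1.48 to −0.22, while the latter ran from −1.31 to −0.45. In the large subunit the medians were −0.70 for 23 genes with a bacterial counterpart and −0.87 for 13 genes of mitochondria only, and in the small subunit they were −0.80 for 11 genes and −0.80 for 7 genes. These medians are descriptions, and no test between classes was run. Relative to the total of the listed values 17 of the 34 genes with a bacterial counterpart and 16 of the 20 genes of mitochondria only were called lower.

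**Figure D3:**
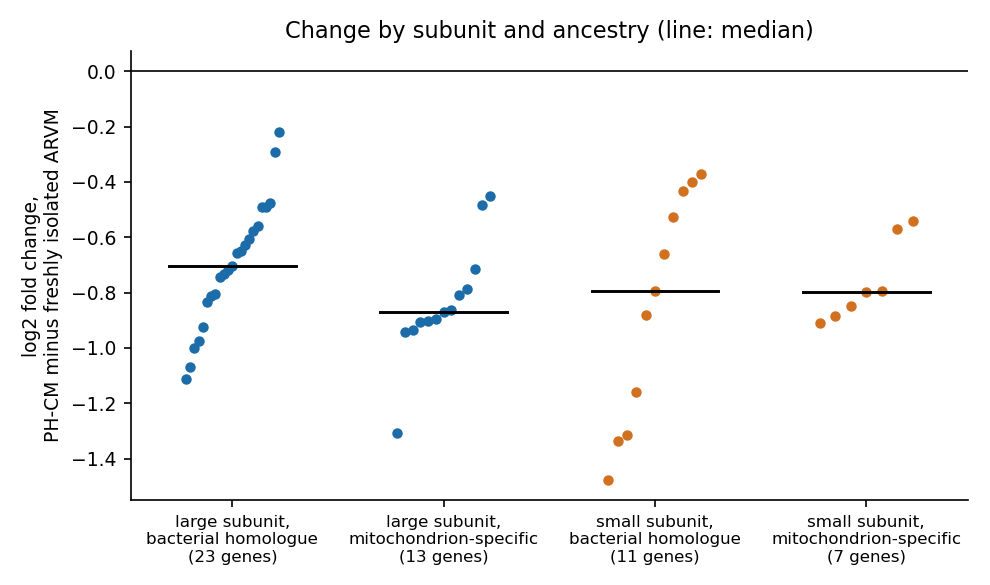
Log2 fold change (PH-CM minus freshly isolated ARVM) of 54 members, Mrps36 left out, by subunit and by whether the protein has a bacterial counterpart, each point 1 gene and each line the median of its class. The 4 classes overlap, with medians from −0.87 to −0.70, and dividing by the total of the listed values moves 4 points with a bacterial counterpart above 0.

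Some proteins of the mitochondrial ribosome carry other names. Mrp63, the older name of Mrpl57, went from 2739 ± 215 to 1601 ± 42.5 (SD, n = 3 each), a log2 fold change of −0.77 (SE 0.07, limma adjusted p = 2.68e-05). It falls outside the rule for members and was chosen after its values were seen. Ict1, which frees stalled chains and is part of the large subunit, fell from 1552 ± 151 to 848 ± 19.9 (SD, n = 3 each), by 0.87 on the log2 scale (limma adjusted p = 3.81e-05). It was 1 of 6 listed genes of ribosomal proteins under other symbols, all 6 of which were called lower, with a median of −0.59 (3 relative to the total, with a median of −0.17). Next to it in size were Chchd1 (−0.75) and Ptcd3 (−0.74), a protein of the small subunit that binds RNA.

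A list of 114 related genes held those that build and serve the ribosome. It also held transcripts of the mitochondrial genome and regulators of nuclear genes for mitochondria. Of the 114 related genes 62 were listed for ARVM, 61 of them called lower and 1 higher (Mycn, a regulator). Relative to the total of the listed values 28 were called lower and 1 higher. Beside these and the ARVM lists below, 43.7% of all listed genes were called lower and 53.9% higher. Relative to the total those shares were 22.5% and 56.9%. Of 44 genes for assembly, modification of ribosomal RNA and mitochondrial transcription 32 were listed and all 32 were called lower, with a median of −0.71 (15 relative to the total). Afg3l2, a subunit of the protease that matures Mrpl32, was at 6136, 6070 and 6689 in fresh and at 2471, 2808 and 2118 in PH-CM libraries, a change of −1.36. Hsd17b10, part of the enzyme that cuts transfer RNAs out of mitochondrial transcripts, changed by −1.20, and Lrpprc, which stabilises mitochondrial messages, by −1.14.

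The soluble factors of mitochondrial translation were lower as well. All 10 listed of 14 were called lower, with a median of −0.90 (6 relative to the total). Gfm1, the elongation factor that moves the ribosome along the message, was at 5131, 4610 and 4443 in fresh and at 1824, 1898 and 1709 in PH-CM libraries, a change of −1.38. The initiation factor Mtif2 changed by −1.26 and Tufm, the elongation factor that delivers transfer RNAs, by −1.09. Of 20 genes that charge mitochondrial transfer RNAs 7 were listed and called lower (2 relative to the total), with a median of −0.68 and Fars2 (−0.92), Tars2 (−0.91) and Qrsl1 (−0.78) at their head. Of 15 transcripts of the mitochondrial genome, the messages that this ribosome reads and its RNAs among them, 0 were listed, and their levels were not analysed here.

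Of 15 regulators of nuclear genes for mitochondria 7 were listed, 6 called lower and 1 higher (2 lower and 1 higher relative to the total). Ppargc1a, a coactivator that raises mitochondrial content, was at 506, 483 and 555 in fresh and at 268, 220.0 and 212 in PH-CM libraries, a change of −1.14 (limma adjusted p = 1.20e-04). Mycn, a transcription factor of growing cells, was at 85.5, 135 and 93.0 in fresh and at 250, 254 and 180 in PH-CM libraries, a change of 1.13 (limma adjusted p = 0.00280). Its fresh and PH-CM libraries did not overlap, but listed genes had been selected for a difference in these same libraries. Myc, of the same family and with higher values, went the other way, from a mean of 3173 to 1986. Its change was −0.685 (limma adjusted p = 7.37e-04), and that of Max was −0.77. Esrra, a nuclear receptor of genes for oxidative metabolism, changed by −0.81.

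The cytosolic ribosome and the respiratory chain give a scale for these changes. Of 71 listed cytosolic ribosomal protein genes 69 were called higher and 2 lower, and their log2 fold changes had a median of 0.55. Of 77 listed genes of oxidative phosphorylation subunits 74 were called lower and 3 higher, with a median of −2.05. The members, at −0.80, lay between the 2 groups, and on the scale of the listed total the medians were 0.98, −1.63 and −0.37. The oxidative phosphorylation genes were added for comparison after values had been seen.

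**Figure D4:**
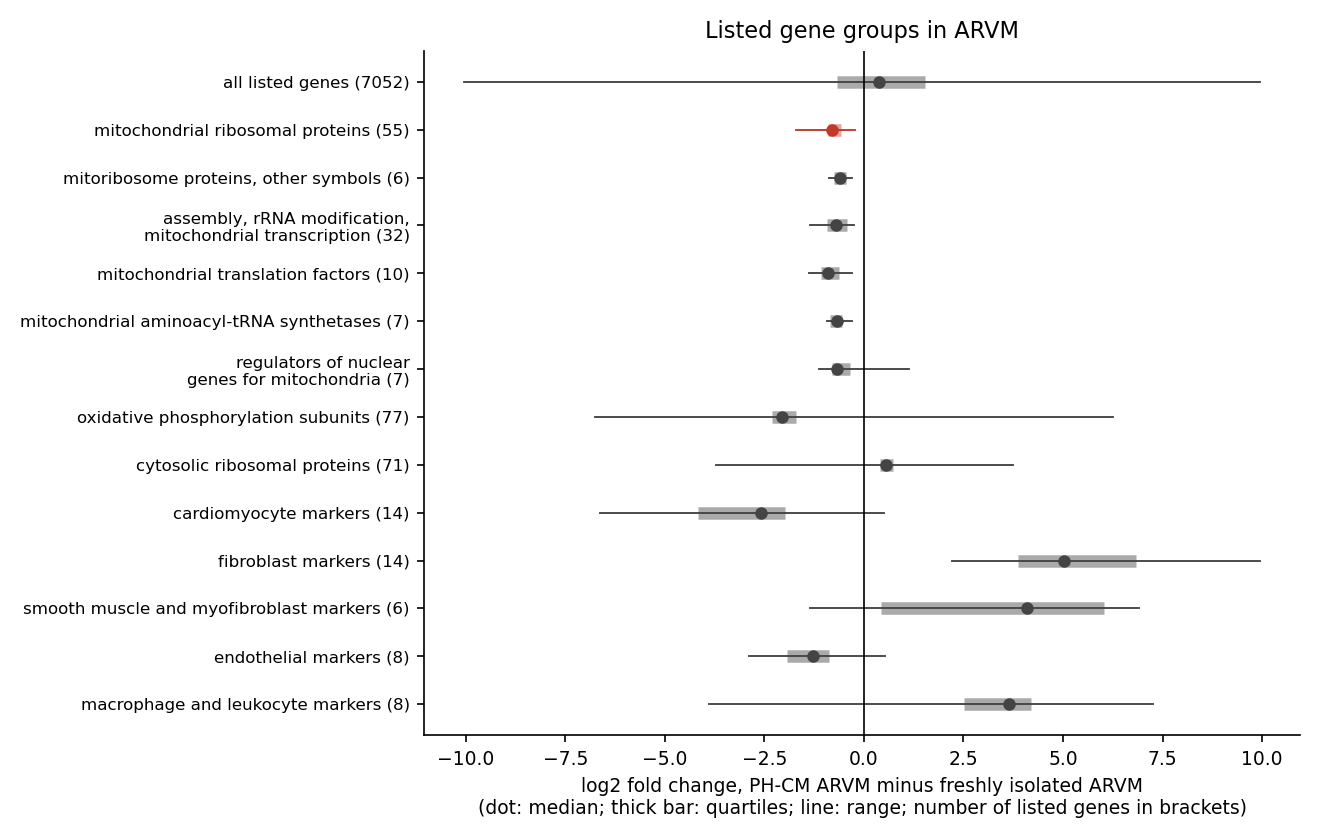
Log2 fold changes (PH-CM minus freshly isolated ARVM) of the members in red beside related gene lists, cell type markers and all listed genes, each with its median (dot), quartiles (thick bar) and range (line). The members, with a median of −0.80, lie between the respiratory chain genes at −2.05 and the cytosolic ribosomal protein genes at 0.55. Dividing libraries by the total of the listed values moves all groups by about the same amount and so cannot change this order.

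Cell type markers in the libraries moved with these values. Of 15 cardiomyocyte markers 14 were listed, 13 called lower and 1 higher (Myh7), and their summed level went from 2009000 to 2035000 in fresh libraries to 233400 to 288100 in PH-CM libraries. All 14 fibroblast markers were listed and called higher, with sums of 6155 to 7903 in fresh and 141600 to 202500 in PH-CM libraries, and Thy1 was at 0 in 2 fresh libraries. Of 6 smooth muscle and myofibroblast markers 4 were called higher and 2 lower (3229 to 3713 in fresh, 28430 to 46250 in PH-CM), and of 8 proliferation markers 7 were listed and called higher (467 to 517 in fresh, 2955 to 4922 in PH-CM). Of 8 endothelial markers 7 were called lower and 1 higher (8963 to 10740 in fresh, 3650 to 4291 in PH-CM). Of 9 macrophage and leukocyte markers 8 were listed, 7 called higher and 1 lower (6842 to 7014 in fresh, 7220 to 10540 in PH-CM). The 1 lower was Cd74, which made up most of the fresh sum and went from a mean of 6691 to 449. Lyz2, the highest of the 7 others in PH-CM ARVM, went from 40.8 to 6237. Of 4 erythroid markers 3 were listed and called lower, with sums of 2097 to 2493 in fresh libraries and 0 in PH-CM libraries. The paper reports staining for α-smooth muscle actin and for periostin in PH-CM ARVM, and which cells carried the marker transcripts here was not tested. In bulk RNA fewer cells of a type and less RNA per cell cannot be told apart. The part of these shifts in the members' values was not tested.

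The starts of the members' genes were read in RefSeq (assembly GRCr8), in windows of 300 bases from 250 before to 50 after the start. Windows were held for 44 of the 55 members and for 33469 genes in all. The members' windows were rich in CpG, with a median ratio of observed to expected CpG of 0.817 against 0.392 over all windows, and 88.6% of them against 34.3% were above 0.6. Short words bound by known regulators of mitochondrial genes were searched on both strands, with the share in all windows and in the 11493 windows with a CpG ratio above 0.6 given beside each. A match describes the letters of a window, and whether a factor binds there was not measured.

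The word CGCATGCG, the core bound by NRF1, a regulator of nuclear genes for respiration, was in the windows of 5 members (11.4%, against 1.66% of all windows and 4.19% of CpG-rich ones). All 5 are shown, since they include Mrpl17 and Mrpl22, the members with the smallest changes, and capitals mark the word, which reads the same on both strands. Mrpl17 holds it 2 times.
Mrpl17, chr1:169575720-169575779, minus strand: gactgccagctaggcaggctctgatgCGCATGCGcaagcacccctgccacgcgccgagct
Mrpl17, chr1:169575697-169575726, minus strand: ccgagctactgCGCATGCGtcctctggaaa
Mrpl22, chr10:42845871-42845900, plus strand: gcctcggactgCGCATGCGtgcaggcagcc
Mrpl32, chr17:55260564-55260623, plus strand: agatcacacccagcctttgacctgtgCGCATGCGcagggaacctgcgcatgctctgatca
Mrpl44, chr9:88554893-88554952, plus strand: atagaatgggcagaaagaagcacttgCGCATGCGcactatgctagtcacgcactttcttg
Mrps18b, chr20:2842976-2843005, plus strand: tccttgtccggCGCATGCGcagtcgttctt
The log2 fold changes of these 5 genes were −0.22, −0.29, −0.49, −0.48 and −0.85, a median of −0.48 against −0.81 for the other members with a window.

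The word AAGATGGCG of YY1, a zinc finger protein that binds at many starts of transcription, was in 8 windows (18.2%, against 1.73% of all and 3.91% of CpG-rich ones). In 7 of them it lay on the strand of the gene and began 6 to 30 bases after the start, and these are shown because the word holds about the same place in each, with the word in capitals. In the remaining window, that of Mrpl36, it lay on the other strand and before the start.
Mrpl37, chr5:127074943-127074972, minus strand: ctgcccgggcaAAGATGGCGgcgtccaggt
Mrpl42, chr7:32028485-32028514, minus strand: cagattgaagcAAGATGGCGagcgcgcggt
Mrpl46, chr1:142116988-142117017, minus strand: gggaagacggaAAGATGGCGgcgcccatag
Mrpl50, chr5:68668043-68668072, minus strand: ggagcttgtcgAAGATGGCGgcgctgtgtg
Mrps10, chr9:21122405-21122434, minus strand: gtcagggcaccAAGATGGCGgcgcgcgcag
Mrps27, chr2:32474222-32474251, plus strand: tggtacgctccAAGATGGCGgcccccatgg
Mrps30, chr2:52195868-52195897, minus strand: cgcggaggacaAAGATGGCGgctgccaggt
The changes of the 8 members ran from −1.31 for Mrpl42 to −0.57 for Mrps27, with a median of −0.84 against −0.79 for the other members with a window.

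The word CCGGAAG of GABP, an ETS factor of respiratory genes, was in 11 windows (25%, against 8.75% of all and 18.7% of CpG-rich ones), with a median change of −0.80 against −0.81 for the rest. Mrpl4 and Mrpl3 are shown as the 2 members with this word that had the steepest falls, the word in capitals and, for Mrpl4, as its reverse complement.
Mrpl4, chr8:27815759-27815788, plus strand: ttcattggtttgCTTCCGGagcccgctctc
Mrpl3, chr8:114548968-114548997, plus strand: ttgagaaacggaCCGGAAGtggctcagctg
The word CACGTG, bound by factors of the Myc family, was in 6 windows (13.6%, against 6.42% of all and 10.7% of CpG-rich ones), and TATAAA in 7 (15.9%, against 14.2% and 5.61%). The 5 words were chosen after the members' changes had been seen.

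Some members share their start region with a gene read the other way. Of the 44 members with a window 15 (34.1%) had the start of an opposite gene within 1000 bases upstream, against 11% of all windows. The share among CpG-rich windows was not computed, although 88.6% of the members' windows against 34.3% of all were CpG-rich. Of the members' 15 neighbours 8 were listed for ARVM, 6 called lower and 2 higher, against 43.7% and 53.9% of all listed genes. The 6 lower calls include Mrpl46 and Mrps11, which are members themselves. Mrpl46 and Mrps11 are each other's neighbour, with starts 234 bases apart, and changed by −0.79 and −0.66. Mrpl47 (−0.48) starts 244 bases from Ndufb5, a subunit of complex I, which changed by −2.12 (limma adjusted p = 3.74e-07). Mrpl27, near the site of peptide bond formation, starts 44 bases from Eme1, a subunit of a DNA repair nuclease. Eme1 changed by 2.46 (limma adjusted p = 0.00153) and Mrpl27 by −0.92, so the genes of that pair moved in opposite directions. Mrpl30 (−0.70) and its neighbour Mitd1 (0.56, limma adjusted p = 0.0219) did so as well, and Mrpl32 and Psma2, a proteasome subunit, changed by −0.49 and −0.52.

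In Cfib no member was among the listed genes, and whether their transcripts differed cannot be read from a table of selected genes. Of the 114 related genes 10 were listed, 8 called lower and 0 higher in PH Cfib, where 39.4% of all listed genes were called lower and 58.2% higher (limma). At their head stood TSFM, the partner that recharges Tufm. The scale of these values was not settled. The study's methods describe normalised counts, while only 2.36% to 3.40% of a library's values were whole multiples of the best step tried, against 100% in ARVM, and a scale per gene length is possible. Those of TSFM were 42.7, 44.0 and 64.6 in CO Cfib and 19.3, 20.8 and 19.7 in PH Cfib. The groups lay far apart, and the log2 fold change was −1.27 (SE 0.16, limma adjusted p = 4.06e-04). The other calls were small, among them GFM2 (−0.36), OXA1L (−0.31), PTCD3 (−0.28), GTPBP10 (−0.27), TARS2 (−0.24) and SUPV3L1 (−0.23). OXA1L inserts the products of the mitochondrial ribosome into the inner membrane, and PTCD3 is itself a protein of its small subunit. FASTKD5 (−0.17, adjusted p = 0.0623) and RPUSD3 (0.13, adjusted p = 0.0589) did not pass. Rescaling these libraries by the median of ratios moved all changes by a median of −0.27, about the size of most of these calls, and 9 genes were then called lower. Without PH Cfib 1 there were 5 calls, GTPBP10 and SUPV3L1 being among those lost. SUPV3L1 was also lost without PH Cfib 2 (adjusted p = 0.0535), and TARS2 without PH Cfib 2 (adjusted p = 0.0670) or PH Cfib 3 (adjusted p = 0.0762). With 4 of 14 fibroblast markers and 0 of 15 cardiomyocyte markers listed for Cfib, the table does not allow a check of the cell type. The 4 fibroblast markers were called higher, with sums of 2225 to 3129 in CO Cfib and 7245 to 7575 in PH Cfib, and of 6 smooth muscle and myofibroblast markers 5 were listed, 4 called higher and 1 lower (97.4 to 133 in CO, 225 to 236 in PH). Of 9 macrophage and leukocyte markers 3 were listed, 2 called higher and 1 lower (8.06 to 11.1 in CO, 5.94 to 7.08 in PH). Of 8 proliferation markers 4 were listed and called lower, with sums of 151 to 231 in CO Cfib and 11.8 to 14.3 in PH Cfib. The part of these markers in the values above was not tested.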

How the data were processed

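The authors removed ribosomal RNA, sequenced on a HiSeq4000, aligned rat reads to rn6 and bovine reads to bosTau8 with HISAT2 and StringTie, and normalised with DESeq2 (versions are not given in the sources used here). They required a value above 1 in a condition and a p-value under 0.05, so both deposited tables hold selected genes only. The deposited ARVM signal is a read count divided by 1 size factor per library (0.632 to 1.32), and 100% of its values were whole reads within 0.01. No such step was found in the deposited Cfib signal (steps of the smallest value divided by 1 to 5). It may be scaled per gene length, although the methods describe normalised counts, and its depth is unknown.

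The test was limma 3.58.1 in R 4.3.3, with a trended eBayes prior, of log2(value + 1). P-values were adjusted over all listed genes by Benjamini-Hochberg with a threshold of 0.05, and fold changes of low genes are understated on this scale. The listed genes had already been selected for a difference in the same libraries, so the adjusted p-values do not bound the share of false calls. On recovered ARVM reads edgeR 4.0.16 (quasi-likelihood, TMM) and DESeq2 1.42.0 were alternatives. The code was tested on simulated data. Alternatives covered pseudocounts of 0.1 and 10, a minimum mean of 10, an untrended prior, scaling by the median of ratios, a minimum log2 fold change of 1, an unequal-variance test, a block for replicate number and each library left out. Scaling by the total of the listed values and edgeR with the authors' size factors were added after the values were seen. P-values measure the spread between these libraries. The paper describes the sequenced Cfib as coming from 3 animals per group, while the spread between ARVM libraries may be technical. An exact permutation test of 3 against 3 cannot go below 0.1.

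Members and lists were chosen with earlier results of these data known. Named were the 8 members with the largest changes, those with the 2 highest and 2 lowest means, the extremes of each subunit class, and the 3 called genes with the largest changes of each pathway list. Other genes were named after their values were seen. Of the 55 members 21 have pseudogenes in RefSeq (38 in all, 9 of them of Mrpl30), so their reads may be shared. Promoter windows came from RefSeq (GRCr8), and 11 members had none. The classes by subunit and ancestry were written by hand. Figures used Python 3.11.15 with matplotlib 3.10.9.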

Additional observations from a re-analysis of the deposited data

How the results depend on the processing

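Divided by the total of the listed values, 34 members in place of 55 were called lower and 1 in place of 0 higher, the median log2 fold change was −0.37 in place of −0.80, and the direction turned for Mrpl17 (0.20), Mrpl22 (0.13), Mrps17 (0.052) and Mrps5 (0.024). Of the 114 related genes 28 in place of 61 were then called lower. The shift follows from the lower total of the PH-CM libraries on the authors' scale. With a minimum log2 fold change of 1, 8 members were called lower and 0 higher, against 16.0% and 32.3% of all listed genes. With the unequal-variance test 52 members were called lower, Mrpl20, Mrps27 and Mrps17 being lost. Leaving out 1 library gave 54 to 55 members called lower, with a median of −0.82 to −0.74. DESeq2 and edgeR called 55 lower, with medians of −0.81 and −0.82 (TMM), and neither called a member higher, also at an unadjusted p under 0.05. Leaving out 1 library gave 53 to 59 lower calls among the related genes listed for ARVM. For Cfib it gave 5 to 8 lower calls (8 with all libraries) and 0 to 1 higher calls (RPUSD3 without CO Cfib 3).

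Replicate numbers are shared between CO and PH Cfib, and libraries of equal number had correlated deviations of 0.258, 0.0312 and 0.259, which does not show pairing. With the replicate block 7 genes were called lower, TARS2 being lost (adjusted p = 0.0549). ARVM groups share no numbers. The selection of genes before deposit allows no statement on those not listed, and no alternative could be run on Cfib members.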
